A study of Mus musculus with 12 samples.

Results

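Ramp2, Chst1, Pdzrn3, Tmem145, Emp1, Iffo2 and Tgfbi are 7 of the genes with the largest difference between 24 h and 0 h of doxycycline (dox) in mouse embryonic stem cells carrying an inducible Tcf15-E47 fusion. They were picked from that difference, so it is described here and supports nothing. The 7 genes have 11 probes on the array, of 38561 probes in all. Of the 11 probes, 9 were detected (detection p under 0.01) on at least 2 arrays, as were 13914 of all probes, covering 8537 named genes. All 7 genes kept at least 1 detected probe. The 2 undetected probes both belong to Pdzrn3. For the probes of Pdzrn3, Iffo2 and Tgfbi detection was inferred from signal, as described under processing.

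The cells are 129/P2 E14tg2a embryonic stem cells, an established mouse line, grown in GMEM with LIF and fetal calf serum. Tcf15-E47 cells received 1 µg/mL dox for 0, 8, 12 or 24 h. Parental cells, which lack the construct, received the same dose for 8 h or none. Each of the 6 groups held 2 Illumina BeadChip arrays (n = 2 for every group below). Whether the duplicates were separate cultures, and whether the inducible line is 1 clone, is not given in the sources used here, so every p measures a spread that may be technical. Parental cells were not sampled at 12 or 24 h, so what dox does by itself at those times cannot be told apart from what the fusion does.

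Tcf15 belongs to the basic helix-loop-helix (bHLH) family of transcription factors. E47, a splice product of the E protein gene Tcf3, is a frequent dimer partner of tissue-specific bHLH factors. Such dimers bind the hexamer CANNTG, called the E-box. The 7 genes encode proteins of unlike kinds. Ramp2 is a single-pass membrane protein that pairs with the receptor Calcrl to make an adrenomedullin receptor, and it is known mainly from blood vessels. Emp1 is a tetraspan membrane protein of the PMP22 family, and Tmem145 is a predicted multi-pass membrane protein of the GOST family. Tgfbi is a secreted matrix protein with FAS1 domains that binds integrins, and its gene is named for its induction by TGF-beta. Chst1 is a Golgi sulfotransferase that adds sulfate to galactose in keratan sulfate chains. Pdzrn3 is a ubiquitin ligase with RING and PDZ domains, and Iffo2 is an orphan member of the intermediate filament family.

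The promoter windows are shown because the induced factor is of the E-box binding class and the genes move in the same direction. RefSeq's GRCm38.p6 table holds 8 windows for 6 of the 7 genes, each from 250 bases before to 50 after an annotated gene start. Which start the cells used was not measured. CANNTG, which reads the same on both strands, was found in 3 of the 8 windows, against 72.3% of all 32851 windows of this length. The windows below are written 5′ to 3′ on the gene's strand, with each E-box in capitals.
Tmem145, chr7:25305858-25306157, plus strand: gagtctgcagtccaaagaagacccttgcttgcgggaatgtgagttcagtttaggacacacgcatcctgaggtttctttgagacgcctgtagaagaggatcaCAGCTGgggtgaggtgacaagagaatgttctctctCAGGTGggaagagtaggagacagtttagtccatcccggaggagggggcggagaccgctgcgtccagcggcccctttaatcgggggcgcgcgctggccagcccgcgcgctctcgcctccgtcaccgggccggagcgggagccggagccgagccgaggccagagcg
Emp1, chr6:135362681-135362980, plus strand: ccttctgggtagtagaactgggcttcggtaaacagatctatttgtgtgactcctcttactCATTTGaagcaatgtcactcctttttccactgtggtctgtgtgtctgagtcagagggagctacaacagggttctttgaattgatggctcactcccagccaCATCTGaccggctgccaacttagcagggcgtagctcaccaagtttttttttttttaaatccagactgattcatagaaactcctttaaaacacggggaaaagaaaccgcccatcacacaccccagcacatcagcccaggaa
Iffo2, chr4:139530298-139530597, plus strand: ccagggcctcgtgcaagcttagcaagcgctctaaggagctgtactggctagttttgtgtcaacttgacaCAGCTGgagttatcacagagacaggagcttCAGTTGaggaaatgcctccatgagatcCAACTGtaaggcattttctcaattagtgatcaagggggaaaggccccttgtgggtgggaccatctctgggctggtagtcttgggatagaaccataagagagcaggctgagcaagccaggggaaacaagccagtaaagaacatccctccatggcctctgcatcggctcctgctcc
Tgfbi, chr13:56609336-56609635, plus strand: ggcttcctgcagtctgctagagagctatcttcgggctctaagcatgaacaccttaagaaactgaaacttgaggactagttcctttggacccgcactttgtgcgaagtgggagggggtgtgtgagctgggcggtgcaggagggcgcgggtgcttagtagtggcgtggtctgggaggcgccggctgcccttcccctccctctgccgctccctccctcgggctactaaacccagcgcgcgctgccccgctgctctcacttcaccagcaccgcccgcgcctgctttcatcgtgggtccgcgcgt

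In the Tmem145 window CAGCTG begins 149 bases before the start, and CAGGTG begins 114 bases before it. In the Emp1 window CATTTG begins 190 bases before the start, and CATCTG begins 90 bases before it. The Iffo2 window has 3 E-boxes, beginning 181, 151 and 124 bases before the start. Tgfbi is shown as a window in which these letters were not found. None were found either in the windows of Chst1 and Pdzrn3 or in the second windows of Emp1 and Iffo2. Across all windows, searched on both strands, CAGCTG occurs in 16.3%, CAGGTG in 20.2% and CATCTG in 17.2%. TATAAA was in 0 of the 8 windows and in 13.6% of all windows. A match is a description of the letters and no evidence of binding.

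Levels below are normalized log2 signals after background correction, so a difference of 1 is a doubling of signal, and levels of different probes cannot be set against each other. Median raw signal ran from 88.98 to 103.1 units per array, with 30.7% to 34.7% of probes detected, and replicates correlated at 0.993 to 0.996 across probes, which are not independent. The 2 Tcf3 probes, ILMN_2596277 and ILMN_2596278, averaged 6.24 and 6.32 with dox for 8 h, against 4.95 and 5.13 without dox in Tcf15-E47 cells. The Tcf15 probe averaged 9.99 with dox for 8 h and 9.95 without. Whether these probes lie inside the construct is not given in the sources used here. Of 10 embryonic stem cell markers 9 have a probe, and all 9 were detected on every array.

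Replicate 2 of the parental cells with dox for 8 h stood apart. Acta2, the smooth muscle actin, read 11.03 there and 4.43 to 5.48 on the other 11 arrays, while the type I collagen gene Col1a1 read 5.83 there and 4.18 to 4.57 on the others. Of 10 fibroblast or feeder markers, 6 were detected on that array and 1 to 3 on each other array, with a summed signal of 3137 units there against 969 to 1206 units elsewhere. The sum is of unlogged signals and includes Acta2, so it is not independent of that value. Lum, Postn, Pdgfrb and, by its brightest probe, Col3a1 were not detected on that array. Dcn, another of the 10 markers, read 4.92 there, 4.52 to 4.95 on the other parental arrays and 5.47 to 6.58 on the Tcf15-E47 arrays. Emp1 and Pdzrn3 were also high on that array. So was Tmem145 among parental arrays, at 5.12 against 4.61 to 4.70 on the others. The part of these transcripts in their values was not tested, and results that use the array are followed by their values without it.

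**Figure D1:**
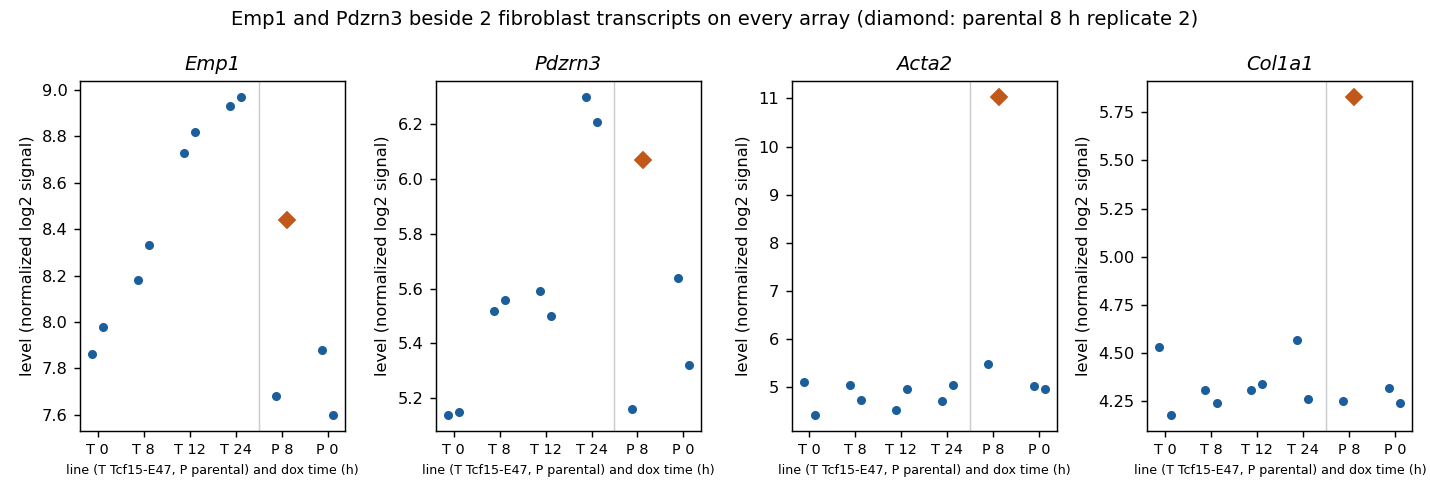
Levels (normalized log2 signal, vertical axis) of Emp1, Pdzrn3, Acta2 and Col1a1 on each of the 12 arrays, by line (T, Tcf15-E47; P, parental) and hours of dox. Each circle is 1 array and the diamond is parental 8 h replicate 2, at 8.44 for Emp1, 6.07 for Pdzrn3, 11.03 for Acta2 and 5.83 for Col1a1.

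All 7 genes were highest after 24 h of dox, and they reached that level by different paths. At 12 h, Chst1, Tmem145, Emp1 and Tgfbi had gained 74.2% to 82.7% of their 24 h difference, and Ramp2 60.7%, each by its brightest detected probe. Pdzrn3 and the brighter probe of Iffo2 had gained 36% and 30.2%. By these shares the larger part came after 12 h in Pdzrn3 and the brighter Iffo2 probe, and by 12 h in the other 5 genes. The shares are of logged signal and of the difference that chose the genes. They have no interval, and their differences between genes were not tested. The 12 h difference of Pdzrn3 from 0 h had a 95% interval of -0.06 to 0.86. In unlogged signal Ramp2 stood at 1.67 times its 0 h level at 12 h and 2.34 times at 24 h. For Ramp2 the larger part by 12 h is therefore read in logged signal only. The differences at 24 h from 0 h were 1.01 to 1.23 with a median of 1.10, where the median of all probes was 0.004. In that comparison 1.24% of all probes were called higher (adjusted p under 0.05), a share from which nothing is read because the same contrast chose the genes.

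**Figure D2:**
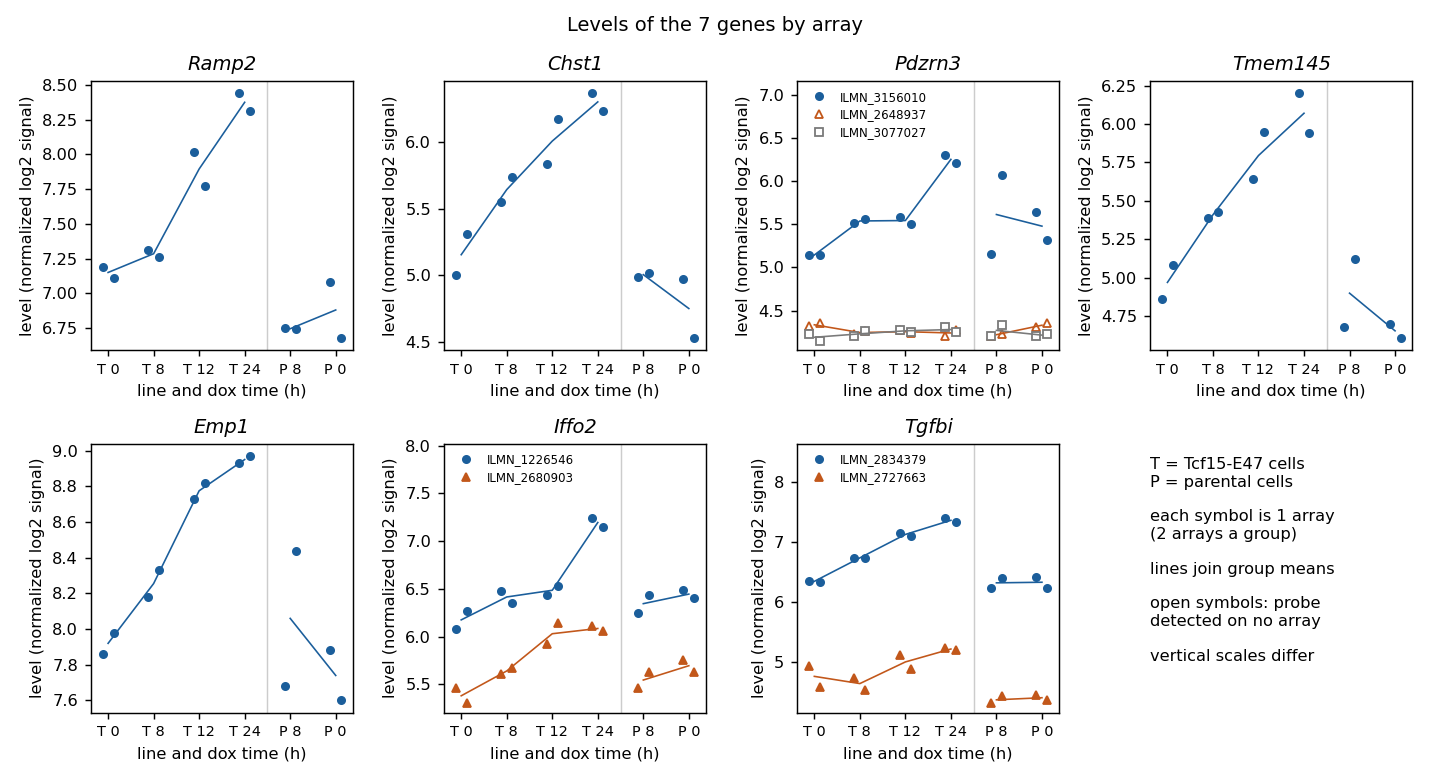
Levels (normalized log2 signal) of all 11 probes of the 7 genes on every array, by line and hours of dox. Symbols are single arrays, lines join the means of 2 arrays, open symbols mark the 2 Pdzrn3 probes detected on no array, and the vertical scales differ between panels. Every first probe is highest in Tcf15-E47 cells at 24 h.

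Ramp2 (probe ILMN_2661422; chromosome 11, 101246334 to 101248250) had 7.19 and 7.11 in Tcf15-E47 cells at 0 h, 7.31 and 7.26 at 8 h, 8.02 and 7.77 at 12 h, and 8.44 and 8.31 at 24 h of dox. In parental cells it had 6.75 and 6.74 with dox for 8 h, against 7.08 and 6.68 without. The 4 Tcf15-E47 groups stood in the order of time with no array out of place, and both parental groups lay below them all. The difference of 12 h from 8 h, a comparison that shares no array with the choice of genes, was 0.61 ± 0.133 (SE; adjusted p = 0.0278), a 1.53-fold rise. Of the 7 genes it was the one that changed least by 8 h, at 0.13 above 0 h (adjusted p = 0.999). Its difference of 12 h from 0 h was 0.74 ± 0.133 (adjusted p = 0.00648).

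Emp1 (probe ILMN_2642913; chromosome 6, 135362550 to 135383173) had 7.86 and 7.98 in Tcf15-E47 cells at 0 h, 8.18 and 8.33 at 8 h, 8.73 and 8.82 at 12 h, and 8.93 and 8.97 at 24 h. Its values separate at each step, and it had gained 82.7% of its 24 h difference by 12 h, the most of the 7 first probes. Parental cells had 7.68 and 8.44 with dox for 8 h, the second being the array that stood apart, against 7.88 and 7.60 without dox. The difference of 12 h from 8 h was 0.52 ± 0.188 (adjusted p = 0.148), and without that parental array, which widens the spread estimate, 0.52 ± 0.121 (adjusted p = 0.0435). At 12 h against 0 h the difference was 0.85 ± 0.188 (adjusted p = 0.0196).

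Tmem145 (probe ILMN_1214060; chromosome 7, 25305500 to 25316196) had 4.86 and 5.08 in Tcf15-E47 cells at 0 h, 5.39 and 5.43 at 8 h, 5.64 and 5.95 at 12 h, and 6.20 and 5.94 at 24 h. Its group means increased by 0.45 to 8 h, by 0.38 to 12 h and by 0.27 to 24 h, and its 12 h and 24 h arrays overlap. Parental cells had 4.68 and 5.12 with dox for 8 h, against 4.70 and 4.61 without dox, and neither of the arrays without dox detected it. The probe was detected on 8 of 12 arrays, and on 1 of the 2 Tcf15-E47 arrays at 0 h. Against 0 h the 12 h difference was 0.83 ± 0.156 (adjusted p = 0.00889), and that of 12 h from 8 h was 0.38 ± 0.156 (adjusted p = 0.207).

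Tgfbi (chromosome 13, 56609586 to 56639359) has 2 detected probes. The brighter, ILMN_2834379, had 6.35 and 6.33 in Tcf15-E47 cells at 0 h, 6.73 and 6.73 at 8 h, 7.15 and 7.09 at 12 h, and 7.39 and 7.32 at 24 h. In parental cells it had 6.23 and 6.40 with dox for 8 h, against 6.42 and 6.23 without. In Tcf15-E47 cells its duplicates lay closer together than any step between times. Against 0 h the 12 h difference was 0.78 ± 0.106 (adjusted p = 0.00143, the lowest of the 7 genes in that comparison), and that of 12 h from 8 h was 0.39 ± 0.106 (adjusted p = 0.0669).

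The dimmer Tgfbi probe, ILMN_2727663, had 4.94 and 4.58 at 0 h, 4.74 and 4.54 at 8 h, 5.12 and 4.88 at 12 h, and 5.23 and 5.20 at 24 h in Tcf15-E47 cells, against 4.31 to 4.45 on the 4 parental arrays. It was detected on 4 arrays, both at 24 h and 1 each at 0 and 12 h, so it entered the analysis mainly through the group in which it is high. Like the brighter probe it is highest at 24 h, and it differs from that probe at 8 h, where it was not detected on either array. With neither 8 h array detecting this probe, its fold at 12 h against 8 h is given as a bound, 1.10. The difference between these times did not pass the test (adjusted p = 0.158). Only 1 array detected the probe at 12 h, so 1.10 is not a firm lower limit. Its 24 h difference was 0.45 where the brighter probe's was 1.01.

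Chst1 (probe ILMN_1255385; chromosome 2, 92599632 to 92615252) had 5.0 and 5.31 in Tcf15-E47 cells at 0 h, 5.55 and 5.74 at 8 h, 5.84 and 6.18 at 12 h, and 6.37 and 6.24 at 24 h. It had the largest difference of the 7 at 8 h and at 12 h. Parental cells had 4.99 and 5.02 with dox for 8 h, against 4.97 and 4.53 without dox, where neither array detected it. The difference of 12 h from 0 h was 0.86 ± 0.161 (adjusted p = 0.00885), and that of 12 h from 8 h was 0.36 ± 0.161 (adjusted p = 0.247). The difference of 8 h from 0 h was 0.49, with a 95% interval of 0.15 to 0.84 and an adjusted p of 0.999.

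Pdzrn3 (chromosome 6, 101149607 to 101377897) rests on 1 probe of 3. Probe ILMN_3156010 had 5.14 and 5.15 in Tcf15-E47 cells at 0 h, 5.52 and 5.56 at 8 h, 5.59 and 5.50 at 12 h, and 6.30 and 6.21 at 24 h. In parental cells it had 5.16 and 6.07 with dox for 8 h, against 5.64 and 5.32 without. Its 8 h and 12 h arrays overlap, and the step of 0.71 from 12 h to 24 h is the larger part of its difference. The difference of 12 h from 8 h was 0.00, with a 95% interval of -0.45 to 0.46 (adjusted p = 0.997). The other 2 probes, ILMN_2648937 and ILMN_3077027, lay between 4.15 and 4.35 on all 12 arrays and were detected on none, so they hold no information on the course of the first.

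Iffo2 (chromosome 4, 139530548 to 139620382) has 2 probes detected on all 12 arrays, and they differ in when they rise. The brighter, ILMN_1226546, had 6.08 and 6.27 in Tcf15-E47 cells at 0 h, 6.48 and 6.35 at 8 h, 6.44 and 6.53 at 12 h, and 7.24 and 7.15 at 24 h. In parental cells it had 6.25 and 6.44 with dox for 8 h, against 6.49 and 6.40 without. Its 8 h and 12 h arrays overlap, and all but 0.31 of its 24 h difference of 1.02 came after 12 h. The second probe, ILMN_2680903, had 5.46 and 5.30 at 0 h, 5.61 and 5.67 at 8 h, 5.92 and 6.14 at 12 h, and 6.11 and 6.06 at 24 h in Tcf15-E47 cells. In parental cells the second probe had 5.46 and 5.63 with dox for 8 h, against 5.76 and 5.63 without. Its 12 h and 24 h arrays overlap, and it had gained 92.7% of its 24 h difference of 0.70 by 12 h. At 12 h against 0 h the second probe rose by 0.65 ± 0.114 (adjusted p = 0.00588), and the brighter probe differed by 0.31 ± 0.112 (adjusted p = 0.126). Both probes are highest at 24 h, and the difference between the probes was not tested.

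**Figure D3:**
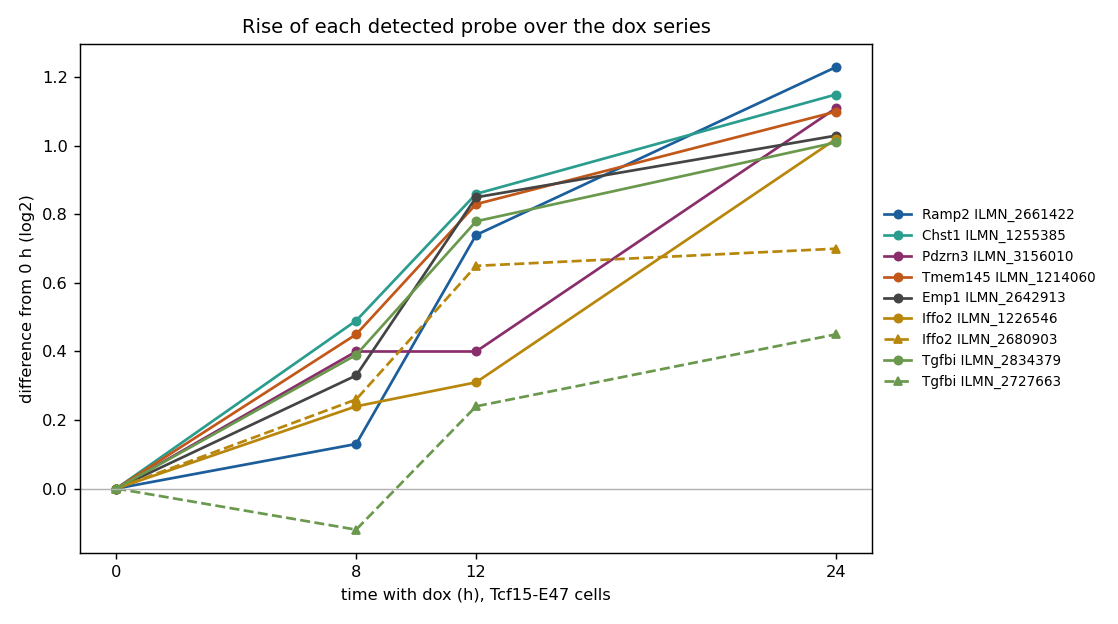
Difference from 0 h (log2) at 8, 12 and 24 h of dox in Tcf15-E47 cells for the 9 detected probes, as means of 2 arrays less the mean of the 2 arrays at 0 h. Dashed lines are second probes. Most lines climb steeply between 8 and 12 h. Those of Pdzrn3 and the brighter Iffo2 probe climb by 0.40 and 0.24 to 8 h and stand at 0.40 and 0.31 at 12 h. Each then climbs by 0.71 between 12 and 24 h.

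The comparison of 12 h with 8 h of dox asks whether the rise went on once it had begun, on arrays that played no part in choosing the genes. Of the 7 genes, 1 rose, Ramp2, where 1.02% of all 13914 probes were called higher. The 7 differences ran from 0.00 to 0.61 with a median of 0.38, against a median of 0.007 over all probes. The other 6 did not pass, and 5 of the 7 had an unadjusted p under 0.05, as did 2624 of all 13914 probes in either direction. In 5 genes both arrays at 12 h lay above both at 8 h, where 27.3% of all probes did so, and the exceptions were Pdzrn3 and Iffo2. Ramp2 did not pass with any 1 of the 4 compared arrays left out (adjusted p = 0.0595 to 0.232), nor with no filter on dim probes (adjusted p = 0.0736). The lowest and highest adjusted p over its 12 alternatives were 0.00245 and 0.232.

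At 12 h against 0 h, a comparison that shares the 0 h arrays with the choice of genes, 5 of the 7 genes rose. They were Ramp2, Chst1, Tmem145, Emp1 and Tgfbi, and 2.39% of all probes were called higher. The differences ran from 0.31 to 0.86 with a median of 0.78, against 0.008 over all probes. Pdzrn3 differed by 0.40 (95% interval -0.06 to 0.86; adjusted p = 0.285). Without the parental array that stood apart it was again 0.40 (adjusted p = 0.0745). In the authors' deposited table, whose fold changes were made without background correction and are smaller, Ramp2 had a log2 fold change of 0.53 (adjusted p = 0.00426) and Tgfbi of 0.45 by its brighter probe (adjusted p = 0.000501). That table calls 6 of the 11 probes at 12 h, where it calls 1.36% of all 38561 probes higher, and these include the second Iffo2 probe (0.27, adjusted p = 0.00798).

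After 8 h against 0 h, 0 of the 7 genes passed with limma. An unadjusted p under 0.05 was reached by 3 of them and by 596 of all 13914 probes. Over all probes 0.0144% were called higher, which is 2 probes. The differences were positive in all 7 genes, from 0.13 to 0.49 with a median of 0.39, against 0.003 over all probes. In each gene both arrays at 8 h lay above both at 0 h, where 16.3% of all probes did so, and the 0 h arrays are those used in the choice. Tgfbi had the lowest adjusted p, 0.751. The authors' deposited table calls 0 of the 11 probes at 8 h, where it calls 0.00778% of all probes higher, so 0 of 11 says little about the genes.

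In parental cells 8 h of dox against none gave 0 of 7 genes and 0% of all probes called higher with limma. An unadjusted p under 0.05 was reached by 0 of the 7 genes and by 880 of all 13914 probes. The differences ran from -0.14 for Ramp2 to 0.32 for Emp1. Without the array that stood apart they ran from -0.32 to 0.24, with Emp1 at -0.06 and Pdzrn3 at -0.32 in place of 0.14. For Chst1 and Tmem145 no fold is given, because the arrays without dox did not detect them. Tmem145 averaged 4.90 in parental cells at 8 h, or 4.68 with the array that stood apart left out, and 4.66 at 0 h. The responses of both lines to 8 h of dox differed by 0.01 to 0.40, with 0 of 7 genes and 0% of probes called. Of the 7 first probes, 1, that of Tgfbi, had an unadjusted p under 0.05, as did 721 of all 13914 probes. By the second Iffo2 probe the responses differed by 0.41 (limma, unadjusted p = 0.0235, adjusted p = 0.888). The difference of the 8 h responses contains the Tcf15-E47 0 h arrays used in the choice, so its values are not independent of it. Without the array that stood apart the range was 0.25 to 0.72, again with 0 called, and Emp1 stood at 0.39 in place of 0.01, Pdzrn3 at 0.72 in place of 0.26 and Tmem145 at 0.43 in place of 0.20. By its brighter probe the response of Tgfbi was 0.39 ± 0.106 in Tcf15-E47 cells, against -0.01 ± 0.106 in parental cells. Without the array that stood apart the parental value was -0.10. The dimmer Tgfbi probe, which neither line detected at 8 h, gave -0.12 and -0.03 in the same order.

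Set against parental cells at 8 h, also on arrays that took no part in the choice, Tcf15-E47 cells differed by -0.07 to 0.64 with a median of 0.42, against 0.008 over all probes. These values include the difference between the lines without dox, which ran from -0.34 to 0.40 over the 7 genes. Without dox Ramp2 differed by 0.27 and Tgfbi by 0.02, and Chst1 averaged 5.15 in Tcf15-E47 cells and 4.75 in parental cells. At 8 h 0 of the 7 genes passed, where 0.906% of all probes were called higher. An unadjusted p under 0.05 was reached by 4 of the 7 and by 2518 of all 13914 probes. Ramp2 came nearest, at 0.55 ± 0.133 (adjusted p = 0.0518). Chst1 differed by 0.64 (adjusted p = 0.0595) and Tgfbi by 0.42 (adjusted p = 0.0603). These 3 are at the edge of the threshold. All 3 passed with 1 probe per gene and with trended, robust moderation. None of the 3 passed with no filter on dim probes (adjusted p = 0.0597 to 0.163) or with any 1 of the 4 compared arrays left out (adjusted p = 0.129 to 0.291). Without the array that stood apart, Ramp2 differed by 0.54 (adjusted p = 0.22), Chst1 by 0.65 (adjusted p = 0.22) and Tgfbi by 0.50 (adjusted p = 0.14). In Ramp2, Chst1, Tmem145 and Tgfbi both Tcf15-E47 arrays lay above both parental ones, where 26.6% of all probes did so. Leaving out the same array, Emp1 differed by 0.57 (adjusted p = 0.139) in place of 0.19, Pdzrn3 by 0.38 (adjusted p = 0.3) in place of -0.07 and Tmem145 by 0.73 (adjusted p = 0.0909) in place of 0.51. The 7 differences then ran from 0.16 to 0.73, and again 0 passed.

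**Figure D4:**
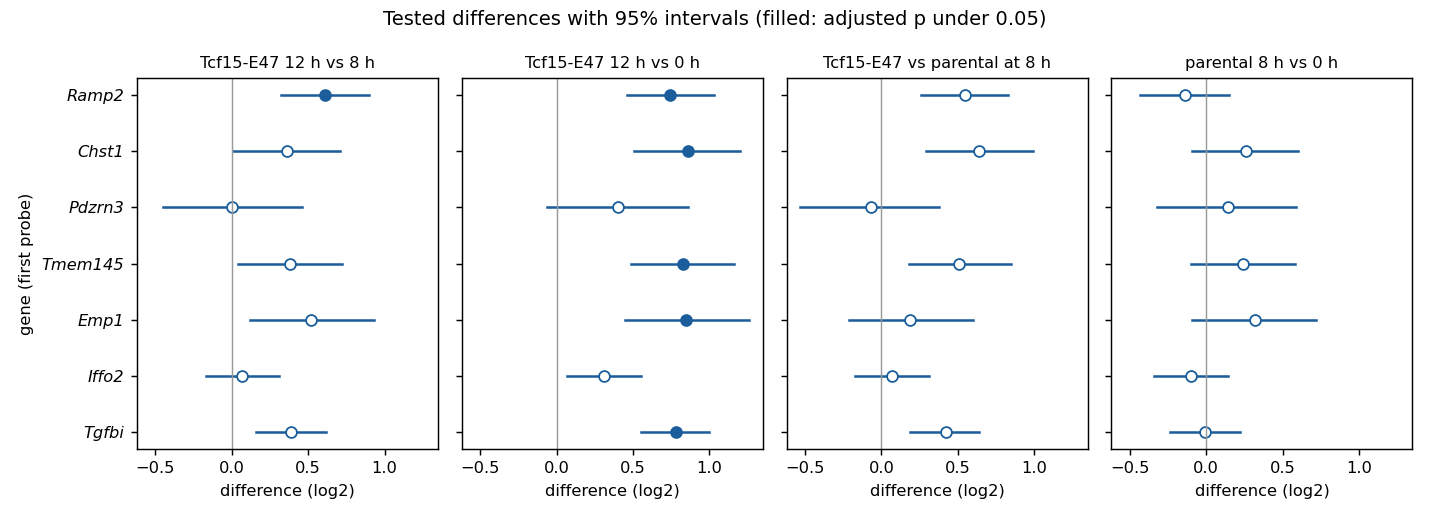
Log2 differences of the first probe of each gene with 95% intervals (horizontal bars) in 4 tested comparisons, filled where the adjusted p is under 0.05. Ramp2 is filled at 12 h against 8 h, 5 genes are filled at 12 h against 0 h, and none is filled in the comparison of lines at 8 h or in parental cells.

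Levels of the lines without dox are a description with no test, since these Tcf15-E47 arrays were used to choose the genes. Ramp2 averaged 7.15 in Tcf15-E47 cells and 6.88 in parental cells, a difference of 0.27 that was 0.07 or 0.47 with 1 parental array left out. Chst1 showed at least 1.08-fold more signal in Tcf15-E47 cells, with both parental arrays below detection. Tmem145 averaged 4.97 in Tcf15-E47 cells, with 1 of 2 arrays detected, and 4.66 in parental cells, with neither detected. Pdzrn3 ran the other way, at 5.15 in Tcf15-E47 cells and 5.48 in parental cells, and so did the brighter Iffo2 probe, at 6.18 and 6.44 in the same order. Arrays of the lines overlap for Emp1 and Tgfbi. The median of the 7 differences was 0.18, and 0.04 to 0.32 with 1 array left out.

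Ordered by level over the 6 groups, Tcf15-E47 cells at 24 h stood first for all 9 detected probes, a place that the choice by 24 h against 0 h favours. How often all probes show such orders over the 6 groups was not counted. For Ramp2 the order down was 12 h, 8 h and 0 h, then parental cells at 0 h and 8 h, and only the arrays of the parental groups overlap. Chst1 and the brighter Tgfbi probe followed the same order of times, with overlap first appearing between Tcf15-E47 cells at 0 h and parental cells. Tmem145 did so too, apart from the overlap at 12 and 24 h. For Emp1 the arrays of Tcf15-E47 cells at 8 h and 0 h and of both parental groups overlap with their neighbours in the order. Parental cells at 8 h ranked 4 for Emp1 at 8.06 and last at 7.68 without the array that stood apart. For Pdzrn3 they ranked 2 at 5.62, with overlap down to parental cells at 0 h, and 5 at 5.16 without that array, next to Tcf15-E47 cells at 0 h at 5.15. The order of the other 7 probes was the same without it. For the brighter Iffo2 probe all 5 groups below 24 h overlap with their neighbours.

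Correlations of group means among the genes, by the brightest probe of each, are a description over 6 groups that share arrays and normalization. The genes were chosen for a large difference between 24 h and 0 h, and both of these groups are among the 6. High correlations among the genes are therefore favoured by the choice. How high correlations run among genes not chosen in this way was not counted. Ramp2, Chst1, Tmem145, Emp1 and Tgfbi correlated with each other at 0.94 to 1.00. Pdzrn3 and the brighter Iffo2 probe correlated at 0.96 with each other and at 0.66 to 0.80 with the other 5. The second Iffo2 probe correlated at 0.79 to 0.90 with those 5, at 0.76 with Pdzrn3 and at 0.80 with the brighter probe. Without the array that stood apart Pdzrn3 and the brighter Iffo2 probe correlated at 0.99, and the ranges became 0.95 to 0.99 among the 5 genes, 0.74 to 0.86 between them and Pdzrn3 or the brighter Iffo2 probe, and 0.80 to 0.91 between them and the second probe. Of 1771 other genes whose group means span at least 0.5 log2 units, the nearest in pattern to Ramp2 was Id1, an inhibitor of E proteins, at r = 0.993. Id1 averaged 11.25 at 24 h and 10.62 at 0 h. The nearest to Tgfbi was Ppp1r13b (r = 0.997), followed by Id1 (0.992) and Id3 (0.983). The nearest to Emp1 was the matrix metalloprotease gene Mmp2 (0.994), followed by Lor (0.989) and the protocadherin gene Pcdh1 (0.988). Chst1 and Tmem145 had the same 3 neighbours, 1500009L16Rik, Gtpbp1 and Pcdh1. Pdzrn3 was nearest to Naa80 (0.99) and the brighter Iffo2 probe to Acsl4 (0.967). Without the array that stood apart Mmp2 was again nearest to Emp1 (0.995) and 1500009L16Rik to Chst1 and Tmem145 (0.99 and 0.995). The nearest to the other 4 genes changed, to Cpe for Ramp2 (0.992), Eva1b for Tgfbi (0.99) and Pknox1 for Pdzrn3 and Iffo2 (0.977 and 0.978). For Tgfbi, Id1 stood at 0.99 as well. Without that array the candidates were 1919 genes in place of 1771, so the rankings are over different sets.

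Other genes in the pathways and families of these 7 were taken from 8 lists of 86 genes, chosen with earlier results of these data known, and 44 of them were tested. At 12 h against 8 h, 1 of the 44 was called higher, where 1.02% of all probes were, and 0 lower, where 2.23% were. At 12 h against 0 h, 1 of the 44 was again called higher and 0 lower, where 2.39% and 3.69% of all probes were. After 8 h 0 were called. These counts do not set the lists apart from all probes. The gene called at 12 h was Itga3, an integrin subunit, at 0.41 ± 0.104 against 8 h (adjusted p = 0.0497) and 0.47 ± 0.104 against 0 h (adjusted p = 0.0199). Between lines at 8 h, 0 were higher and 1 was lower in Tcf15-E47 cells, where 0.906% and 1.31% of all probes were. The lower gene was Chst8, a sulfotransferase for N-acetylgalactosamine, at -0.59 ± 0.121 (adjusted p = 0.0251).

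By family, the adrenomedullin and calcitonin receptor list had 10 of 11 genes on the array and 1 tested. That was Ramp3, a second partner of Calcrl, at 0.11 for 12 h against 0 h (adjusted p = 0.576). No probe of Calcrl or of the ligand gene Adm was detected on 2 or more arrays. Of 17 sulfotransferase and sulfate donor genes 9 were tested, with a median of 0.14 at 12 h against 0 h. Of 21 TGF-beta ligands, receptors, SMADs and common targets 11 were tested, with a median of 0.06 and a range of -0.38 to 0.23. Among them the receptor gene Tgfbr1 was at 0.19 (adjusted p = 0.278) and Bhlhe40, the lowest, at -0.38 (adjusted p = 0.0963). In the PMP22 and EMP family 2 of 6 were tested, and Emp3 was at 0.30 (adjusted p = 0.186). Of 7 LNX and PDZRN ligases and partners 4 were tested, with a range of -0.40 to 0.25 and Pdzrn4 at -0.05. Medians were -0.04 over 7 of 9 intermediate filament and lamin genes and 0.14 over 5 of 6 GOST genes. The median over all probes in this comparison was 0.008.

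The edge of the choice was narrow. By the 24 h difference among named genes with 1 probe each, the 7 genes held ranks 2 to 8, below Prr19 at 1.60. Tgfbi, the last of them, stood at 1.011, and just outside were Gbp2b, a guanylate-binding protein gene, at 1.010 and the ERK phosphatase gene Dusp4 at 1.003. Gbp2b and Tgfbi are thus not separable by this measure.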

How the data were processed

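Expression was measured on 12 Illumina BeadChip arrays, 2 for each of 6 groups. Per the labels' protocols, RNA was amplified to biotin-labelled cRNA. Per the file headers, the authors' non-normalized table has a bead signal intensity and a detection p-value per entry. Their normalized table, also deposited, is in log2 units, and limma is named in the submitters' processing notes without a version. The deposited comparison table gives the authors' log2 fold changes with adjusted p-values.

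Entry names of the non-normalized table match 0 of the 38561 probes, so probe intensities were recovered by value, using the fact that quantile normalization preserves ranks within an array. On all 12 arrays together 16972 of 30854 entries found a probe. An isotonic curve per array (scikit-learn 1.9.0) then gave the signal of every probe without a match, and matched probes kept the signal of their entry. Of 8515 matched entries held out, 100.000% found the same probe, a check on clear matches alone. Detection p-values, in steps of 936 negative controls, were those of the entry for matched probes. For the rest they were read from a curve of detection p against signal over matched entries. The probes of Ramp2, Chst1, Tmem145 and Emp1 were matched directly. Those of Pdzrn3, Iffo2 and Tgfbi were not, so their signals and detection are inferred from the curves, which the held-out check does not cover.

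Signals were background corrected and quantile normalized with neqc (limma 3.58.1, R 4.3.3, offset 16). A limma model of the 6 group means was fitted to the 12 arrays (two-sided moderated test, 6 residual and 7.09 prior degrees of freedom). Probes needed a detection p under 0.01 on 2 or more arrays, which 13914 had, and Benjamini-Hochberg adjustment ran over all of these. A probe was called at an adjusted p under 0.05. Of 9 comparisons 6 were tested. The contrast that chose the genes (24 h against 0 h) and 2 more with its arrays (24 h against 12 h, and the lines at 0 h) are described with no test. Of the tested 6, 3 also contain the Tcf15-E47 0 h arrays (12 h and 8 h against 0 h, and the difference of the 8 h responses), so their values are not independent of the choice. The first probe of a gene is its detected probe with the highest mean. Where no array of a group detected a probe, a fold is a bound against the lowest signal among detected probes of each array, and none is given where that bound is under 1.

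On simulated data for 12 h against 8 h (13914 probes), the fit recovered 34% of 100 changes of 0.5 and 91% of 100 changes of 1 log2 unit. The number of arrays, and signal close to background for dim probes, limit the precision. The genes, lists and comparisons were chosen with earlier results of these data known. By rule the text names the 7 genes, the genes nearest in pattern to each, those at the edge of the choice, called members of 8 pathway lists, and family members. Gene positions and promoter windows are RefSeq's, on GRCm38.p6.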

Additional observations from a re-analysis of the deposited data

How the results depend on the processing

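Over 511 combinations of a gene's tested difference and an alternative, 461 kept their direction and side of the threshold, 16 no longer passed, 16 newly passed and 18 changed sign. Of the 7 genes, 1 was called at 12 h against 8 h. That became 2 with the authors' normalized values (Ramp2 and Tgfbi) and 2 with median scaling, with only the compared arrays and, chosen after the data were seen, without parental 8 h replicate 2 (Ramp2 and Emp1 each time), and 0 with no filter. Leaving out 1 array gave 0 to 2. At 12 h against 0 h the 5 calls became 2 to 5 with 1 array left out, and Tgfbi passed each time. With no filter there were 4, since Emp1 no longer passed (adjusted p = 0.0888). Ramp2 and Tgfbi remained without Tcf15-E47 0 h replicate 1 or 12 h replicate 2, and Chst1, Tmem145 and Tgfbi without 0 h replicate 2 or 12 h replicate 1.

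Between lines at 8 h the 0 calls became 2 with the authors' values, 2 with median scaling, 3 with 1 probe per gene or trended, robust moderation, and 1 (Chst1) with only the compared arrays. It stayed 0 with no filter and with each of the 4 compared arrays left out. The median 24 h difference of 1.10 was 0.59 on the authors' values, which are not background corrected, and 1.00 to 1.16 with 1 array left out. Median scaling moved the median of all probes to 0.10 at 12 h and 0.121 at 24 h against 0 h, so rises on that scale are relative to it. It turned 332 probes higher and 513 lower at 12 h against 0 h into 306 and 212.

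Replicate numbers did not pair the arrays (correlations of -0.079 to 0.151). The replicate block gave 1 call between lines at 8 h (Ramp2) and changed no other count of calls.

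The 18 changes of sign were all in differences that passed the test neither before nor after, and all but that of Tgfbi with median scaling came from leaving out 1 array. In parental cells at 8 h against 0 h, leaving out 1 array gave -0.34 to 0.06 for Ramp2, -0.32 to 0.59 for Pdzrn3, -0.06 to 0.70 for Emp1 and -0.10 to 0.08 for Tgfbi, which was 0.02 with median scaling. Between lines at 8 h it gave -0.53 to 0.38 for Pdzrn3, -0.19 to 0.57 for Emp1 and -0.02 to 0.16 for Iffo2. For the difference of the 8 h responses it gave -0.19 to 0.72 for Pdzrn3, -0.02 to 0.43 for Tmem145 and -0.37 to 0.39 for Emp1, and for Pdzrn3 at 12 h against 8 h -0.04 to 0.05. Beyond the number of arrays left, the cause was not tested.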
